A study of Mus musculus with 9 samples.

Results

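The nuclear genes of oxidative phosphorylation examined here are the protein-coding genes whose symbols begin with the subunit prefixes of the 5 complexes (Ndufa, Ndufab, Ndufb, Ndufc, Ndufs, Ndufv, Sdha to Sdhd, Uqcr, Cox4i, Cox5, Cox6, Cox7, Cox8 and Atp5), together with Cycs, with the Ndufaf assembly factors left out. They numbered 86 of 22048 genes counted, of which 36 belong to complex I, 4 to complex II, 8 to complex III, 20 to complex IV and 17 to complex V, and 1 encodes cytochrome c. Ndufa4 and its paralog Ndufa4l2 were placed with complex IV, where the Ndufa4 protein is now assigned. The RNA came from pancreatic islets of ICR mice, an outbred strain, kept for 3 days in culture at 11.8 mM glucose (the basal condition), 20 mM or 35 mM, with 3 libraries at each concentration. The labels mention 9 mice without tying libraries to animals, and the spread behind the p-values is that between these libraries, which may be technical. One label text gives the highest concentration as 25 mM, and the sample titles and the design text give 35 mM, which was followed here. All islets were wild type and cultured in the same medium, and no freshly isolated islets were analysed here. Each library held 3228648 to 4559561 gene counts made by CEL-Seq2, which reads the 3′ end of each transcript.

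Oxidative phosphorylation is the last stage of fuel oxidation in mitochondria. Complexes I and II pass electrons from NADH and succinate to ubiquinone, complex III passes them to cytochrome c, and complex IV passes them to oxygen, while complex V (ATP synthase) uses the resulting proton gradient to make ATP. In beta cells the ATP made from glucose closes potassium channels and so triggers insulin secretion. Most subunits are nuclear genes, and the mitochondrial genome encodes the others.

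The members had 0.781% to 0.993% of the gene counts of a library, against 48.3% to 57.5% for the insulin genes, which mark the beta cells that these islets mainly hold. By mean level over the 9 libraries, in CPM (counts scaled to TMM-adjusted library sizes), 29 members lay above 100 CPM, 47 between 10 and 100 CPM and 10 below 10 CPM. CEL-Seq2 counts 1 end of a transcript, so these levels do not scale with transcript length. Of the 9 libraries, 11.8 mM replicate 1 stood apart by low values of these genes, and the medians of the members, of each complex and, at 35 mM, of each list are given with and without it. In bulk islets fewer cells of a type and less RNA per cell cannot be told apart.

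Several member promoters carry sequences that textbooks tie to respiratory genes, and those of Cycs are shown because Cycs was among the members with the smallest p at both high concentrations. Promoter windows of RefSeq (GRCm38.p6), from 250 bases before to 50 after a transcript start, were found for 70 of the 86 members. The 250 bases before the start of Cycs lie at chr6:50566570-50566819 on the minus strand. Capitals mark the cAMP response element TGACGTCA and, nearer the start, the core of the site of nuclear respiratory factor 1 (NRF1), GCGCATGC, here read on the opposite strand.
Cycs: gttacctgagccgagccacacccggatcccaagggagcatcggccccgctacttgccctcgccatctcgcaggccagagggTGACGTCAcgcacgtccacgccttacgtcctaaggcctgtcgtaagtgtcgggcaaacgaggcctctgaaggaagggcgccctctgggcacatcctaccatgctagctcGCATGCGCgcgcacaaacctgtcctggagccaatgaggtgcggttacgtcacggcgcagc

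The NRF1 core, searched on both strands, was present in the windows of 11 of the 70 members (15.7%), against 3.94% of 17492 protein-coding genes with a window. Those 11 were Ndufa6, Ndufa8 and Ndufa11 of complex I, Sdhb of complex II, Uqcr11 and Uqcrc1 of complex III, Cycs, Cox6a1 of complex IV, and Atp5g2, Atp5k and Atp5l of complex V. The core with 8 bases on either side is shown for 1 gene of each of complexes I, II, III, IV and V, so that the shared letters can be compared, with the core in capitals.
Ndufa11 (chr17:56717694-56717717, plus strand): tgcactgcGCGCATGCgcgcacgc
Sdhb (chr4:140961209-140961232, plus strand): cccagtggGCATGCGCcctacggg
Uqcrc1 (chr9:108936670-108936693, plus strand): tccgctctGCGCATGCgcagcgcg
Cox6a1 (chr5:115349105-115349128, minus strand): ggaacgggGCGCATGCgcgctctc
Atp5k (chr5:108434434-108434457, minus strand): tcactgcgGCGCATGCgcctttct
In Sdhb the core lies on the strand opposite to the gene. The other 4 hold it on both strands in overlap, and the capitals mark the copy on the gene's own strand. The YY1 site AAGATGGCG was in the windows of 7 members (10% against 2.14% of protein-coding genes), the cAMP response element in 5 (7.14% against 2.54%), the ETS site CCGGAAGT in 5 (7.14% against 5.69%) and the E-box CACGTG in 6 (8.57% against 8.91%). The median GC content was 57.7% over the 75 member windows and 52.7% over all 32851 windows, and these motifs hold CG dinucleotides. The 11 members with an NRF1 core had a median log2 fold change of 0.13 at 35 mM and 0.12 at 20 mM, each against 11.8 mM. The 55 tested members with a window but no core had 0.11 at 35 mM and 0.20 at 20 mM. The medians without 11.8 mM replicate 1 were 0.08 and 0.09 with a core, and 0.03 and 0.10 with none.

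Of the 86 members, 81 passed the filter on low counts and were tested among 9739 genes with edgeR's quasi-likelihood test, with p-values adjusted over all genes (Benjamini-Hochberg) and a call at an adjusted p under 0.05. At 35 mM against 11.8 mM, 1 member rose, Atp5mpl, against 0.626% of all genes, and 0 fell, against 0.236% of all genes, while 17 members (21.0%, against 10.5% of all genes) had an unadjusted p under 0.05, 13 of them above 0. DESeq2 called 2 members (2.47%, against 0.863% of all genes), Atp5mpl and Cycs, both higher. Most members leaned the same way by a small amount: the log2 fold change was above 0 in 63 of 81 (77.8%, against 49.6% of all genes tested), with a median of 0.14 (−0.0027 over all genes) and a range of −0.69 to 0.76. The 3 libraries at 35 mM lay above all 3 at 11.8 mM for 15 members (18.5%, against 8.22% of all genes) and below them for 2 (2.47%, against 6.69%), which were Sdha and Ndufb7.

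At 20 mM against 11.8 mM, 0 members were called by edgeR's quasi-likelihood test, against 0.154% of all genes higher and 0.0308% lower. In that comparison 15 members (18.5%, against 7.97% of all genes) had an unadjusted p under 0.05, all of them above 0. DESeq2 called 2 (2.47%, against 0.349% of all genes), Ndufa1 and Cycs, both higher. The log2 fold change was above 0 in 64 of 81 members (79.0%, against 49.8% of all genes), with a median of 0.18 (−0.0016 over all genes) and a range of −0.22 to 1.05. The top of that range came from a member with 86 counts in all, a standard error of 0.52 and overlapping libraries. The libraries at 20 mM lay above those at 11.8 mM for 16 members (19.8%, against 6.79% of all genes) and below them for 2 (2.47%, against 6.04%), Sdha and Atp5d. The 35 mM and 20 mM comparisons share the 11.8 mM libraries, so they are not independent of each other.

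At 35 mM against 20 mM, 0 members were called by edgeR or by DESeq2, against 0.0308% of all genes higher and 0% lower by edgeR and 0.0308% by DESeq2. Only Atp5f1, below 0, had an unadjusted p under 0.05 (1.23% of members, against 5.29% of all genes). The log2 fold change was above 0 in 28 of 81 members (34.6%, against 49.8% of all genes), with a median of −0.05 (−0.0012 over all genes). Libraries at 35 mM lay above those at 20 mM for 1 member (1.23%, against 6.15% of all genes), Ndufa8, and below them for 8 (9.88%, against 5.76%). Leaving out 1 library moved that median, to −0.015 for 20 mM replicate 1, −0.018 for 35 mM replicate 1, −0.10 for 20 mM replicate 3 and −0.12 for 35 mM replicate 3. The order of mean levels with 20 mM highest and 11.8 mM lowest was found for 37 of the 81 members (45.7%, against 16.8% of all genes), and the order with 35 mM highest and 11.8 mM lowest for 20 (24.7%, against 18.2%). Without 11.8 mM replicate 1 these orders were found for 26 (32.1%, against 15.9%) and 19 members (23.5%, against 20.5%).

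**Figure D1:**
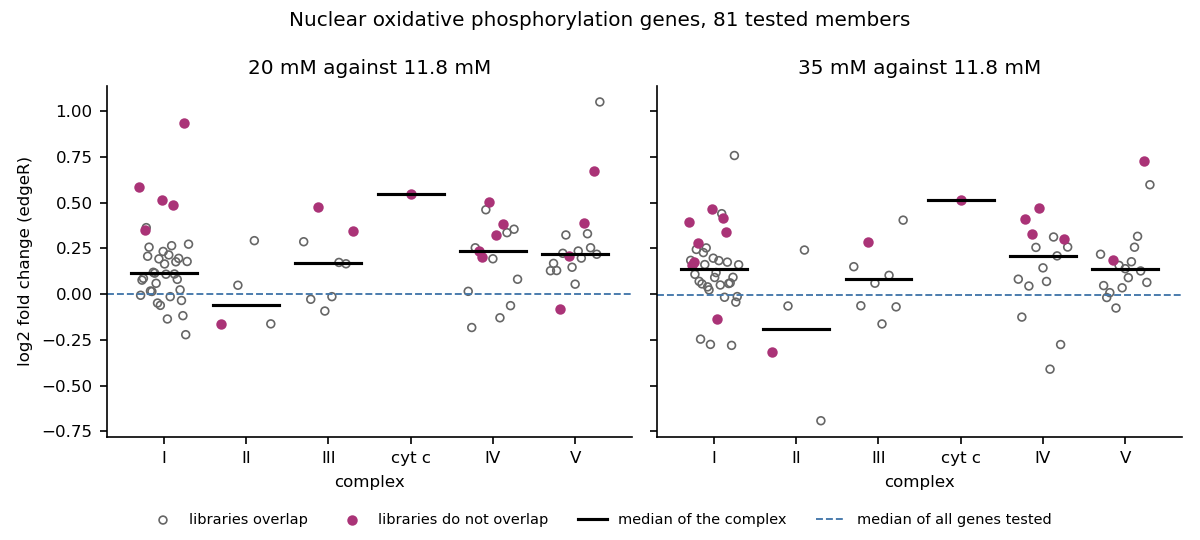
Log2 fold change (edgeR) of each of the 81 tested members, by complex, at 20 mM (left) and 35 mM (right) against 11.8 mM, with filled points where the libraries compared do not overlap, a black bar at the median of each complex and a dashed line at the median of all genes tested. With all 9 libraries the medians lie above 0 in both panels in every complex other than complex II; without 11.8 mM replicate 1 that of complex III is also below 0, at −0.02 at 35 mM and −0.01 at 20 mM.

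Part of this lean went with 1 basal library. 11.8 mM replicate 1 held the lowest value of all 9 libraries for 43 of the 81 members (53.1%, against 14.6% of all genes tested), and its median log2 deviation from the members' own means was −0.28 (0.0019 over all genes). 20 mM replicate 1 held the highest value for 30 members (37.0%, against 14.1% of all genes), with a median deviation of 0.17. Without 11.8 mM replicate 1 the members' median was 0.08 at 35 mM and 0.10 at 20 mM, each against 11.8 mM, with 50 and 59 of 81 members above 0. The 35 mM libraries then lay above the 2 remaining basal ones for 18 members (22.2%, against 14.4% of all genes) and below them for 12 (14.8%, against 13.8%). The 20 mM libraries lay above for 18 (22.2%, against 11.6%) and below for 9 (11.1%, against 11.1%). The median at 35 mM was also 0.083 without 35 mM replicate 3. 11.8 mM replicate 1 was singled out by the members' own values. Leaving out 11.8 mM replicate 2 instead gave medians of 0.18 at 35 mM and 0.22 at 20 mM. Leaving out 11.8 mM replicate 3 gave 0.14 and 0.19. Without 11.8 mM replicate 1 the log2 fold changes at 35 mM were 0.50 for Cycs, 0.33 for Ndufa1, 0.37 for Ndufc2, 0.36 for Cox6b1, 0.18 for Uqcrb and −0.31 for Sdha. At 20 mM they were 0.53 for Cycs, 0.52 for Ndufa1, 0.44 for Ndufc2, 0.39 for Cox6b1, 0.37 for Uqcrb and −0.16 for Sdha. The low share was present in all 3 sub-libraries of 11.8 mM replicate 1, in which members made up 1.60%, 1.61% and 1.64% of the counts outside the insulin genes, against 1.70% to 1.97% in the other 24. In 11.8 mM replicate 1, 21.9% of counted reads had no unique alignment, against 12.6% to 22.6% over all libraries, with the highest share in 35 mM replicate 1. A fit left out the last sub-library of 11.8 mM replicate 1 and of 35 mM replicate 1, picked for many alignments that were not unique. The members' medians against 11.8 mM were then 0.13 at 35 mM and 0.18 at 20 mM, with 64 and 67 of 81 members above 0. Beyond that fit the part of read alignment in the result was not tested.

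**Figure D2:**
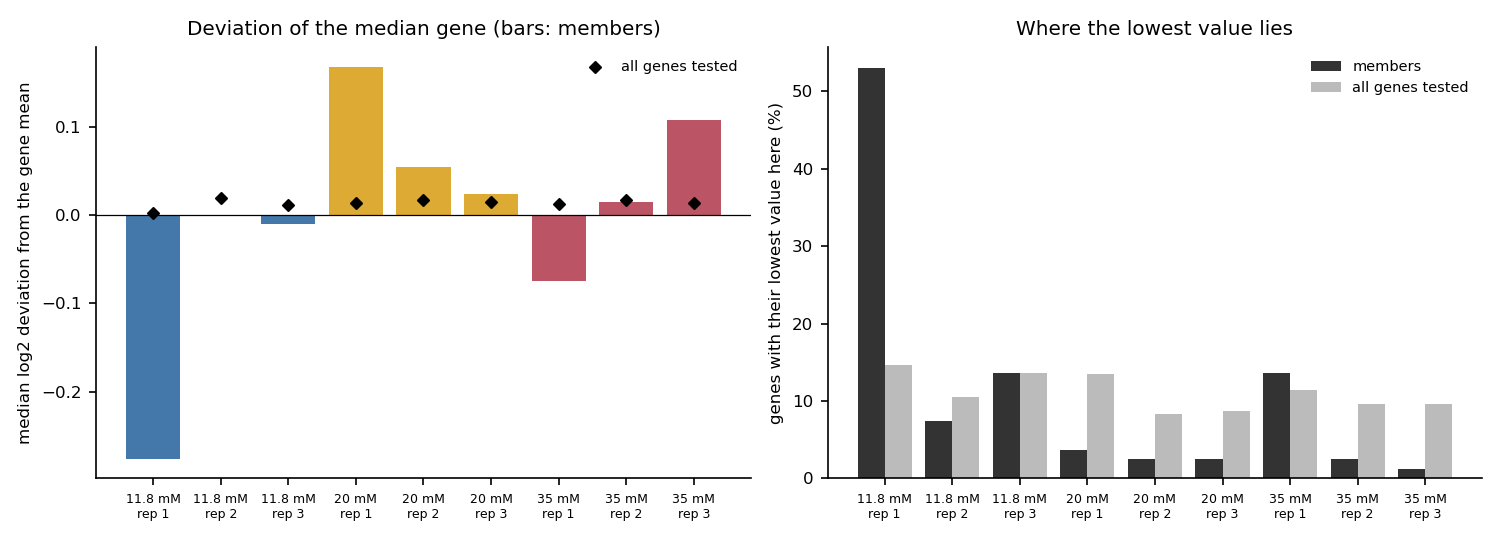
Left, the median log2 deviation from each gene's mean over 9 libraries, for the members (bars, coloured by concentration) and all genes tested (diamonds); right, the percent of genes with their lowest value in each library, for members (black) and all genes tested (grey). 11.8 mM replicate 1 stands at −0.28 and holds the lowest value of 53.1% of the members.

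Markers of some other cell types also differed between the groups. Macrophage and immune markers, with 6 of 6 measured and none at 0, summed to 0.00684% to 0.00824% of gene counts at 11.8 mM, 0.00527% to 0.00647% at 20 mM and 0.0052% to 0.0059% at 35 mM, so that neither high concentration overlapped the basal one. Endothelial markers (4 of 4 measured, none at 0) summed to 0.000787% to 0.000973% at 11.8 mM, 0.000372% to 0.000720% at 20 mM and 0.000603% to 0.000806% at 35 mM, with no overlap between 20 mM and 11.8 mM. They rest on few reads: Pecam1, Plvap, Cdh5 and Kdr had 93, 91, 39 and 11 counts in all, and only 2 of the 4 passed the filter on low counts. The ranges of the next 2 lists overlapped between all 3 concentrations. Acinar markers (12 of 12 measured, none at 0) summed to 0.314% to 1.15% at 11.8 mM, 0.664% to 1.18% at 20 mM and 0.641% to 1.09% at 35 mM, with 0.488% in 11.8 mM replicate 1. Fibroblast and stellate markers (7 of 7, none at 0) summed to 0.0209% to 0.0427%, 0.0156% to 0.0265% and 0.0168% to 0.0271% in the same order of concentrations. The part of these cells in the members' values was not tested.

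Summed over genes, complex I had 1946, 2322 and 2368 CPM at 11.8 mM, 2660, 2487 and 2414 CPM at 20 mM and 2295, 2444 and 2611 CPM at 35 mM. Complex V had 2105, 2434 and 2346 CPM at 11.8 mM, 2788, 2685 and 2445 CPM at 20 mM and 2392, 2567 and 2671 CPM at 35 mM. In both complexes all 3 libraries at 20 mM lay above all 3 at 11.8 mM, and the libraries at 35 mM overlapped both other groups. As a percent of the counts outside the insulin genes, complex I overlapped between 20 mM (lowest 0.50295%) and 11.8 mM (highest 0.50339%), as did all members (lowest 1.82%, against highest 1.84%). Complex V did not (lowest 0.509% at 20 mM, against highest 0.499% at 11.8 mM). All 86 members together averaged 8155 ± 814 CPM at 11.8 mM, 9289 ± 572 CPM at 20 mM and 8846 ± 568 CPM at 35 mM (SD, n = 3 each). The sums of complexes II, III and IV overlapped between all 3 concentrations.

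**Figure D3:**
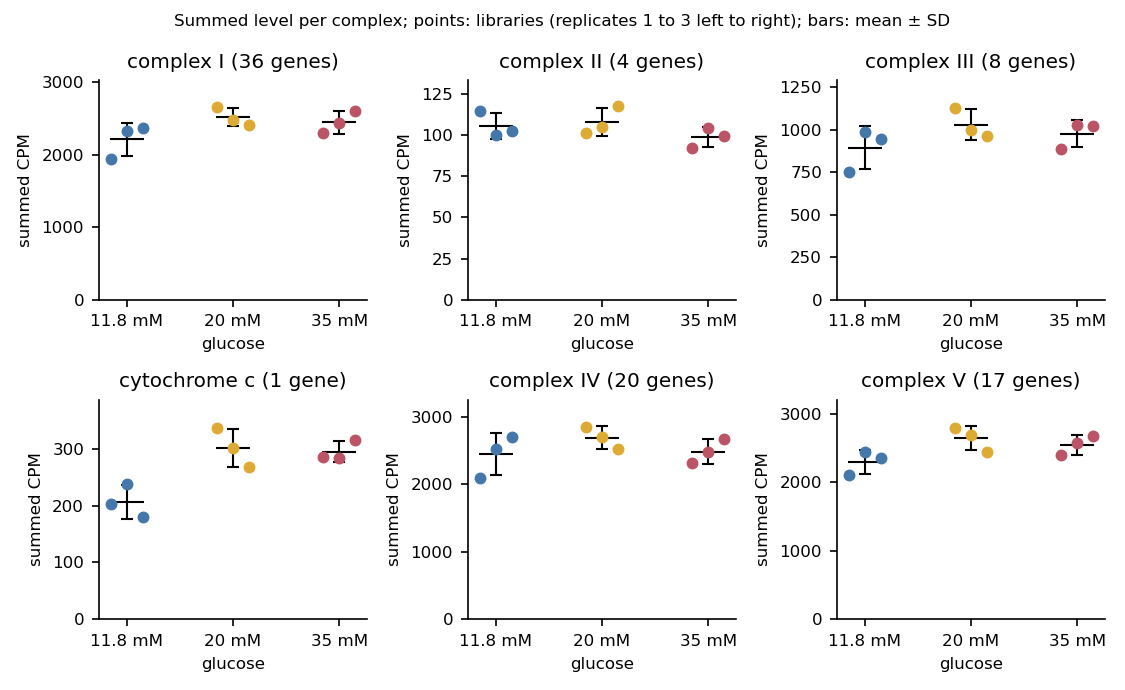
Summed CPM of the members of each complex (vertical axis from 0) by glucose concentration, with 1 point per library and black bars for the mean ± SD of 3 libraries. On this CPM scale complex I and complex V are higher in every 20 mM library than in every 11.8 mM library, and Cycs is higher in every library of both high concentrations.

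In complex I, the NADH dehydrogenase, 0 of 36 members were called in any of the 3 comparisons by edgeR. DESeq2 called 1, Ndufa1, at 20 mM. An unadjusted p under 0.05 was found for 6 of 36 at 35 mM against 11.8 mM (against 10.5% of all genes). It was found for 6 at 20 mM against 11.8 mM (against 7.97%) and 0 at 35 mM against 20 mM (against 5.29%). All of these lay above 0. The median log2 fold change was 0.14 at 35 mM and 0.12 at 20 mM against 11.8 mM, and 0.04 and 0.05 without 11.8 mM replicate 1.

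Ndufa1, a small X-linked membrane subunit needed for assembly of complex I, had 73.0, 81.2 and 84.5 CPM at 11.8 mM, 127, 115 and 116 CPM at 20 mM and 97.4, 96.4 and 120 CPM at 35 mM. Every library of both high concentrations lay above every basal library, and the 20 mM and 35 mM libraries overlapped. Its log2 fold change against 11.8 mM was 0.39 ± 0.13 (SE) at 35 mM, with an edgeR adjusted p of 0.236, and 0.58 ± 0.13 at 20 mM, with an edgeR adjusted p of 0.0632. DESeq2 gave 0.58 at 20 mM with an adjusted p of 0.0197. At 20 mM Ndufa1 passed in 2 of 17 alternative fits, the other with no expression filter (edgeR adjusted p 0.0295). It did not pass without 11.8 mM replicate 1 (edgeR adjusted p 0.161), and edgeR or DESeq2 adjusted p-values ran up to 0.336.

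Ndufc2, another membrane subunit, had 125, 133 and 141 CPM at 11.8 mM, 198, 200 and 161 CPM at 20 mM and 152, 183 and 198 CPM at 35 mM. Its libraries separated in the same way, with log2 fold changes of 0.41 ± 0.14 at 35 mM (edgeR adjusted p 0.209) and 0.49 ± 0.14 at 20 mM (edgeR adjusted p 0.181). Ndufb3, a supernumerary membrane arm subunit, had 34.1, 37.3 and 41.1 CPM at 11.8 mM, 64.4, 51.0 and 45.7 CPM at 20 mM and 45.6, 45.6 and 64.2 CPM at 35 mM, again with no overlap between the basal libraries and the others. Of the 50-base stretches at the 3′ end of Ndufb3, 10.6% also occur in another transcript.

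Ndufa13, also known as GRIM-19, had 53.0, 66.2 and 60.3 CPM at 11.8 mM, 84.4, 73.8 and 70.8 CPM at 20 mM and 57.7, 67.4 and 68.7 CPM at 35 mM. Its 20 mM libraries stood above both other groups, which overlapped each other. Ndufa6, a subunit of the LYR motif family, had log2 fold changes of −0.25 ± 0.16 at 35 mM and 0.02 ± 0.16 at 20 mM, the second of which was −0.11 without 11.8 mM replicate 1. The member of complex I with the highest level was Ndufb11, an X-linked membrane subunit, with a mean of 234 CPM and overlapping libraries in all 3 comparisons. Ndufs8, an iron-sulfur core subunit picked out after its values were seen, had the largest fold change at 35 mM of the 81 members but low counts: 4.80, 9.26 and 4.66 CPM at 11.8 mM, 9.55, 15.4 and 11.3 CPM at 20 mM and 9.66, 8.71 and 13.9 CPM at 35 mM. Its log2 fold changes of 0.76 ± 0.29 and 0.93 ± 0.29 at 35 mM and 20 mM did not pass (edgeR adjusted p 0.328 and 0.282).

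Complex II, succinate dehydrogenase, also a tricarboxylic acid cycle enzyme, had medians of −0.19 at 35 mM and −0.06 at 20 mM against 11.8 mM, and of −0.22 and −0.08 without 11.8 mM replicate 1. None of its 4 members was called by edgeR or DESeq2. At 35 mM against 11.8 mM, 2 of the 4 had an unadjusted p under 0.05 (against 10.5% of all genes). These were Sdha and Sdhd, both below 0. Sdha, the flavoprotein that oxidises succinate and the most abundant of the 4, had 43.2, 40.3 and 44.6 CPM at 11.8 mM, 37.3, 39.2 and 37.5 CPM at 20 mM and 34.9, 34.8 and 33.0 CPM at 35 mM. The 3 groups did not overlap at any step, with the 35 mM libraries lowest and the basal ones highest. Its log2 fold change at 35 mM against 11.8 mM was −0.32 ± 0.15, with an edgeR adjusted p of 0.455.

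The anchor subunits Sdhc and Sdhd, which bind ubiquinone in the membrane, were more variable between libraries. Sdhd had 4.26, 6.71 and 12.5 CPM at 11.8 mM, 7.39, 5.81 and 7.61 CPM at 20 mM and 4.03, 4.94 and 5.40 CPM at 35 mM, and its log2 fold change at 35 mM against 11.8 mM was −0.69 ± 0.34 (edgeR adjusted p 0.473). For Sdhd that value was −0.22 without 11.8 mM replicate 3 and −0.99 without 11.8 mM replicate 1. Sdhc had 44.5, 27.1 and 20.7 CPM at 11.8 mM, 32.6, 35.9 and 44.6 CPM at 20 mM and 30.1, 40.9 and 38.3 CPM at 35 mM, with overlap throughout. Sdhb, the iron-sulfur subunit, had log2 fold changes of −0.07 ± 0.17 at 35 mM and 0.05 ± 0.17 at 20 mM, the second of which was −0.0093 without 11.8 mM replicate 1.

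Complex III, the cytochrome bc1 complex, had medians of 0.08 at 35 mM and 0.17 at 20 mM against 11.8 mM, and of −0.02 and −0.01 without 11.8 mM replicate 1. None of its 8 members was called by edgeR or DESeq2. Against 11.8 mM, 1 of the 8 had an unadjusted p under 0.05 at 35 mM (against 10.5% of all genes). At 20 mM 2 of the 8 had such a p (against 7.97% of all genes). Uqcrq, a small subunit that packs against cytochrome b and the most abundant of the 8, had 211, 274 and 239 CPM at 11.8 mM, 362, 275 and 284 CPM at 20 mM and 268, 343 and 348 CPM at 35 mM. Its 20 mM libraries lay just above the basal ones, and 1 of its 35 mM libraries lay within their range. The log2 fold changes were 0.40 ± 0.14 at 35 mM (edgeR adjusted p 0.255) and 0.35 ± 0.14 at 20 mM (edgeR adjusted p 0.502).

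Uqcrb, which takes part in ubiquinone binding, had 73.0, 92.1 and 91.2 CPM at 11.8 mM, 141, 108 and 108 CPM at 20 mM and 95.8, 101 and 115 CPM at 35 mM. All basal libraries lay below all others, with a log2 fold change of 0.48 ± 0.14 at 20 mM (edgeR adjusted p 0.233). Uqcrh, the hinge protein next to cytochrome c1, had log2 fold changes of −0.07 ± 0.16 at 35 mM and 0.17 ± 0.16 at 20 mM, and of −0.27 and −0.04 without 11.8 mM replicate 1. The core proteins Uqcrc1 and Uqcrc2 and the Rieske iron-sulfur protein Uqcrfs1 had log2 fold changes of 0.06, −0.16 and 0.10 at 35 mM.

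Cycs encodes cytochrome c, the mobile carrier between complexes III and IV. It had 203, 238 and 179 CPM at 11.8 mM, 336, 301 and 268 CPM at 20 mM and 286, 284 and 316 CPM at 35 mM. Every library of both high concentrations lay above every basal library, and the 20 mM and 35 mM libraries overlapped. The log2 fold change was 0.51 ± 0.13 at 35 mM (edgeR adjusted p 0.0606) and 0.54 ± 0.13 at 20 mM (edgeR adjusted p 0.094), and −0.03 ± 0.13 at 35 mM against 20 mM. Neither change against 11.8 mM passed with edgeR as used here, and each passed in 3 of 17 alternative fits. Both passed with DESeq2 (adjusted p 0.0272 at 35 mM and 0.027 at 20 mM). Both also passed without 11.8 mM replicate 2 (edgeR adjusted p 0.0244 and 0.0353) and with no expression filter (edgeR adjusted p 0.0286 and 0.0353). Neither passed without 11.8 mM replicate 1 (edgeR adjusted p 0.0668 and 0.138). Over the alternatives, edgeR or DESeq2 adjusted p-values ran up to 0.301 and 0.467. The gene lies at chr6:50562563-50566538 on the minus strand (GRCm38), and no 50-base stretch of its 3′ end occurs in another annotated transcript.

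Complex IV, cytochrome c oxidase, had medians of 0.21 at 35 mM and 0.23 at 20 mM against 11.8 mM over its 15 tested members, and of 0.15 and 0.20 without 11.8 mM replicate 1, and 0 were called by edgeR or DESeq2. At 35 mM against 11.8 mM, 6 of the 15 had an unadjusted p under 0.05 (against 10.5% of all genes). Of these, 4 lay above 0, and Cox7a2l and Cox8a lay below 0. At 20 mM against 11.8 mM, 4 of the 15 had such a p (against 7.97% of all genes), all above 0. Cox6b1, which faces the intermembrane space near the cytochrome c docking side, had 160, 206 and 198 CPM at 11.8 mM, 312, 245 and 243 CPM at 20 mM and 224, 251 and 308 CPM at 35 mM. All basal libraries lay below all others. Its log2 fold changes of 0.47 ± 0.14 at 35 mM and 0.50 ± 0.14 at 20 mM had edgeR adjusted p-values of 0.144 and 0.2.

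Cox7a2l, known as a factor that joins complexes III and IV in supercomplexes, had 325, 415 and 439 CPM at 11.8 mM, 390, 343 and 345 CPM at 20 mM and 260, 277 and 351 CPM at 35 mM. The 35 mM libraries were mostly the lowest, and 1 of them lay within the range of the basal ones. The log2 fold change at 35 mM against 11.8 mM was −0.41 ± 0.14, with an edgeR adjusted p of 0.228. Without 11.8 mM replicate 1 it was −0.53 and passed (edgeR adjusted p 0.0333), the one member called in that fit. That was the 1 call of Cox7a2l in 17 alternative fits, with edgeR or DESeq2 adjusted p-values up to 0.603.

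Cox7b, an X-linked subunit, had log2 fold changes of 0.31 ± 0.14 at 35 mM and 0.39 ± 0.14 at 20 mM, and only its 20 mM libraries all lay above the basal ones. Cox5b, which binds zinc, and Cox7a2 were higher in every 20 mM library than in every library of both other concentrations, with log2 fold changes at 20 mM against 11.8 mM of 0.23 ± 0.14 and 0.32 ± 0.15 (edgeR adjusted p 0.722 and 0.609). Cox6a1 had 53.6, 54.9 and 53.0 CPM at 11.8 mM, 66.8, 59.6 and 59.8 CPM at 20 mM and 69.0, 63.3 and 70.4 CPM at 35 mM. Its basal libraries were nearly equal and lay below all others, with a log2 fold change of 0.33 ± 0.14 at 35 mM (edgeR adjusted p 0.365). Cox6c, the most abundant member of complex IV with a mean of 679 CPM, had log2 fold changes of 0.14 and 0.19 at 35 mM and 20 mM, with overlapping libraries.

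Complex IV is also the complex with the most tissue-specific isoforms, and the islets held mainly the widely expressed ones. Cox4i1 had a mean of 80.5 CPM, against 2.60 CPM for Cox4i2, the lung and hypoxia-linked isoform. Cox6b1 had 238 CPM, against 1.10 CPM (36 counts in all) for the testis isoform Cox6b2. Cox7b had 206 CPM, against 0.22 CPM (7 counts in all) for Cox7b2. Cox7a2 had 40.1 CPM and Cox7a2l 350 CPM, against 0.098 CPM (3 counts in all) for the heart and muscle isoform Cox7a1.

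Cox8a had a mean of 565 CPM, and the muscle isoform Cox8b and the testis isoform Cox8c had 0 counts in 33137088, which allows up to 0.0911 CPM over the 9 libraries (3 counts, covering counting error only). These 2 and Cox6b2, Cox7a1 and Cox7b2 are the 5 members that were not tested. Cox5a and Cox5b, which are different subunits and not isoforms of each other, had 23.5 and 55.0 CPM. Cox8a itself had a log2 fold change of −0.28 ± 0.13 at 35 mM against 11.8 mM (edgeR adjusted p 0.465).

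Cox6a2 departed from this pattern. It is the heart and muscle isoform of Cox6a, and it had 23.2, 23.1 and 46.3 CPM at 11.8 mM, 51.1, 31.6 and 44.3 CPM at 20 mM and 33.5, 40.6 and 35.5 CPM at 35 mM, a mean of 36.6 CPM against 61.2 CPM for Cox6a1. It was detected in all 9 libraries, while the muscle markers Myh6 and Myh7 were at 0 and Ckm, Actn2 and Acta1 had 9, 8 and 130 counts in all. The muscle markers summed to 0.00066% to 0.00075% of gene counts at 35 mM and 0.00013% to 0.00048% at 11.8 mM. The gene Itgad, whose exons overlap Cox6a2 on the opposite strand, had 0 counts. Its log2 fold changes of 0.26 ± 0.24 at 35 mM and 0.46 ± 0.24 at 20 mM did not pass (edgeR adjusted p 0.81 and 0.673). Ndufa4 had 38.2 CPM, against 3.14 CPM for Ndufa4l2.

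**Figure D4:**
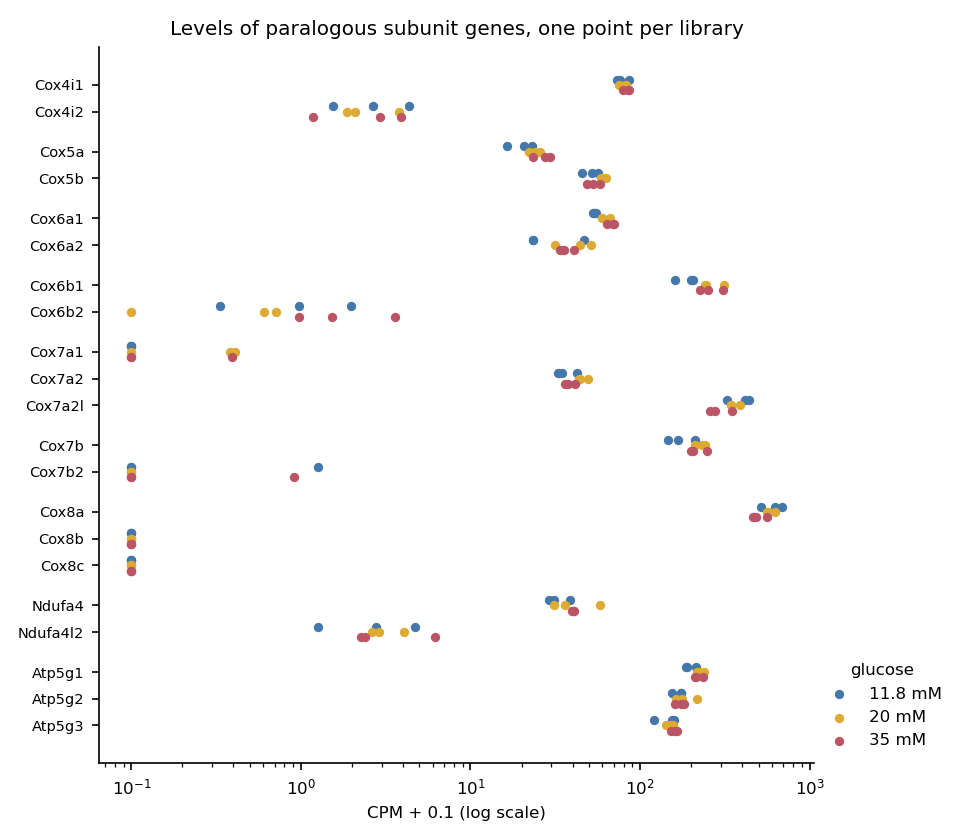
Level of each paralogous subunit gene in each of the 9 libraries, as CPM + 0.1 on a log axis, with colours for the glucose concentration. Cox5a and Cox5b are also shown, although they are different subunits and not isoforms of each other. Points at 0.1 are libraries with 0 counts. Cox6a2 lies close to Cox6a1, while Cox4i2, Cox6b2, Cox7a1, Cox7b2, Cox8b and Cox8c lie far below their paralogs at every concentration.

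Complex V, the ATP synthase, had medians of 0.14 at 35 mM and 0.22 at 20 mM against 11.8 mM over 17 members, with 15 and 16 of them above 0. Both medians were 0.12 without 11.8 mM replicate 1, with 11 and 16 members above 0. The 5 subunits of F1 (Atp5a1, Atp5b, Atp5c1, Atp5d and Atp5e), the part that makes ATP, had medians of 0.05 and 0.13, and the other 12 had 0.15 and 0.24. Leaving out 11.8 mM replicate 1 gave medians of 0.08 and 0.12 for F1 and of 0.12 and 0.17 for the others. No test was made of the difference between these subsets. Atp5d, the delta subunit, had a log2 fold change of −0.08 ± 0.13 at 20 mM, and Atp5c1, the gamma subunit of the rotor, of −0.02 ± 0.14 at 35 mM.

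Atp5mpl encodes a small proteolipid of the membrane part of ATP synthase. It had 23.5, 37.3 and 30.6 CPM at 11.8 mM, 52.0, 50.0 and 44.3 CPM at 20 mM and 50.4, 43.6 and 57.7 CPM at 35 mM. Every library of both high concentrations lay above every basal library, and the 20 mM and 35 mM libraries overlapped. It averaged 50.6 ± 7.06 CPM at 35 mM and 30.4 ± 6.91 CPM at 11.8 mM (SD, n = 3 each), and it rose at 35 mM by a log2 fold change of 0.73 ± 0.17 (edgeR adjusted p 0.0241). At 20 mM the log2 fold change was 0.67 ± 0.17 (edgeR adjusted p 0.0983). The gene lies at chr12:111961375-111966977 on the minus strand (GRCm38), and no 50-base stretch of its 3′ end occurs in another annotated transcript.

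The rise of Atp5mpl at 35 mM kept its direction in all 17 alternative fits, with log2 fold changes of 0.57 to 0.91 and edgeR or DESeq2 adjusted p-values of 0.00339 to 0.153, and it was called in 11 of them. The call was lost on leaving out 11.8 mM replicate 1 (0.57, edgeR adjusted p 0.0952), 11.8 mM replicate 3 (0.72, edgeR adjusted p 0.087), 35 mM replicate 1 (0.73, edgeR adjusted p 0.111) or 35 mM replicate 3 (0.62, edgeR adjusted p 0.153). It was also lost when only the 35 mM and 11.8 mM libraries were fitted (0.72, edgeR adjusted p 0.0527). The call was lost too without the 2 sub-libraries picked for alignments that were not unique (0.65, edgeR adjusted p 0.0711). Those 2 also had a low insulin share, and that alternative was chosen after seeing the data. At 20 mM against 11.8 mM Atp5mpl passed in 2 of 17 alternative fits. These were without 11.8 mM replicate 2 (0.85, edgeR adjusted p 0.0307) and with no expression filter (0.67, edgeR adjusted p 0.0273). It did not pass without 11.8 mM replicate 1 (0.51, edgeR adjusted p 0.3), and edgeR or DESeq2 adjusted p-values ran up to 0.406.

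Among the other membrane subunits, Atp5j2 (subunit f) had 88.2, 116 and 124 CPM at 11.8 mM, 148, 147 and 134 CPM at 20 mM and 119, 122 and 150 CPM at 35 mM, with the 20 mM libraries all above the basal ones. Atp5k (subunit e) had log2 fold changes of 0.32 ± 0.17 at 35 mM and 0.33 ± 0.17 at 20 mM, with overlap in both. Atp5f1, subunit b of the peripheral stalk, had 32.5, 46.3 and 35.5 CPM at 11.8 mM, 54.2, 47.5 and 42.0 CPM at 20 mM and 38.1, 38.0 and 32.7 CPM at 35 mM. Its 35 mM libraries all lay below its 20 mM libraries (log2 fold change −0.40 ± 0.16, edgeR adjusted p 0.905), and the basal ones overlapped both.

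The most abundant of all 86 members was Atp5j, coupling factor 6 of the stalk, with a mean of 790 CPM and log2 fold changes of 0.18 ± 0.13 at 35 mM and 0.20 ± 0.13 at 20 mM. Its exons overlap Gabpa on the opposite strand, and Gabpa had a mean of 3.33 CPM. The genes for the c subunit of the rotor ring, Atp5g1, Atp5g2 and Atp5g3, encode the same mature protein and had means of 214, 175 and 151 CPM. Among these, only Atp5g1 had 20 mM libraries that all lay above the basal ones, at a log2 fold change of 0.21 ± 0.13 (edgeR adjusted p 0.722).

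**Figure D5:**
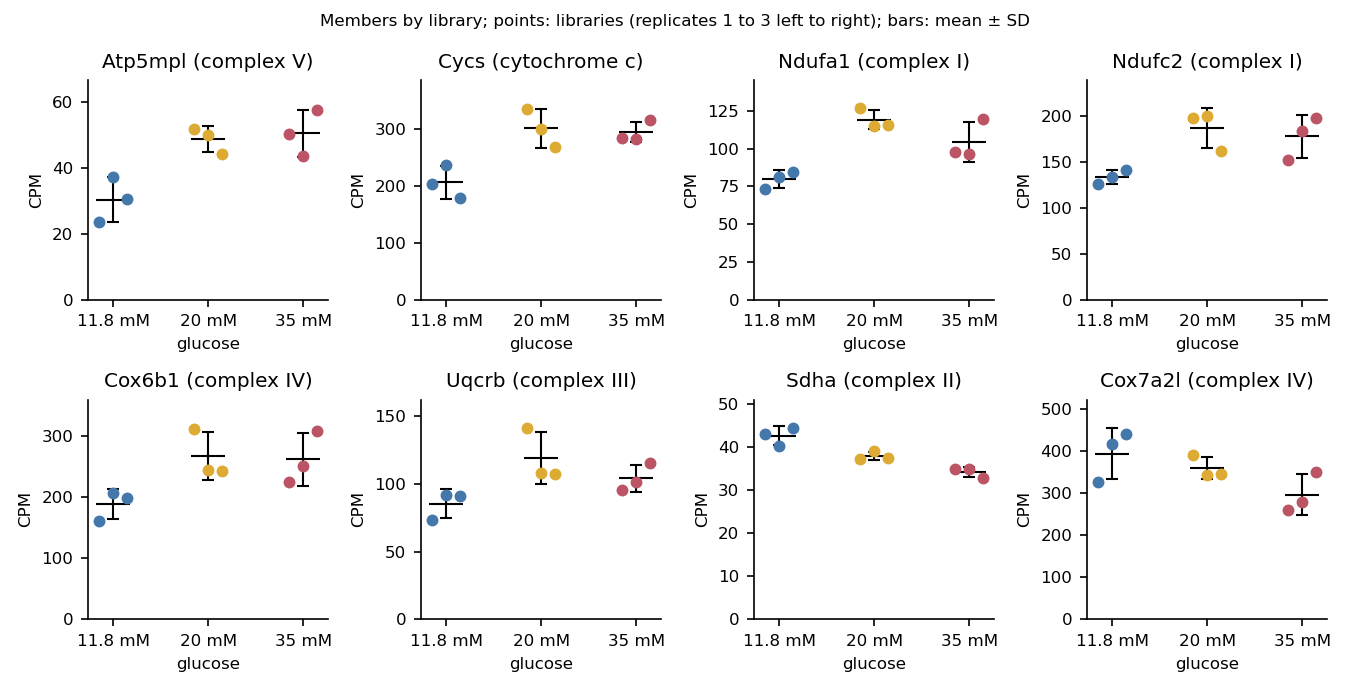
CPM of 8 members by glucose concentration (vertical axes from 0), with 1 point per library, replicates 1 to 3 from left to right, and black bars for the mean ± SD of 3 libraries. In Atp5mpl, Cycs, Ndufa1, Ndufc2, Cox6b1 and Uqcrb every basal library lies below every other library; Sdha is highest at 11.8 mM and lowest at 35 mM, and Cox7a2l overlaps between all groups.

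Many respiratory chain genes have processed pseudogenes, and reads from identical stretches cannot be assigned with certainty. Of the 86 members, 20 shared at least 10% of the 50-base stretches in their last 500 transcript bases with other transcripts. Among them were Atp5l (75.2%), Ndufs3 (53.9%), Atp5h (53.1%) and Uqcrb (46.6%). These are shares of sequence and not of reads, and how far they alter the values was not tested. These 20 had medians of 0.11 at 35 mM and 0.20 at 20 mM against 11.8 mM, and the 61 tested members that shared less had 0.15 and 0.17. The 20 had −0.03 and 0.09 without 11.8 mM replicate 1, and the 61 had 0.09 and 0.11. In addition, 27 members overlap exons of a gene on the opposite strand, and whether counting used the strand is not given in the sources used here.

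Genes that work beside these complexes were read from the same fit. The 13 mitochondrially encoded subunits had a median log2 fold change of −0.16 at 35 mM and 0.09 at 20 mM against 11.8 mM. At 35 mM against 20 mM their median was −0.22 and all 13 lay below 0 (0% above 0, against 49.8% of all genes). None of them was called by edgeR or DESeq2 in any comparison. An unadjusted p under 0.05 was found for 2 at 35 mM against 11.8 mM (15.4%, against 10.5% of all genes) and 0 at 20 mM against 11.8 mM (against 7.97%). At 35 mM against 20 mM it was found for 3 (23.1%, against 5.29%). Their medians against 11.8 mM were −0.31 at 35 mM and −0.06 at 20 mM without 11.8 mM replicate 1. mt-Nd2, a complex I subunit made in mitochondria, had 7862, 9789 and 12435 CPM at 11.8 mM, 12556, 10009 and 10861 CPM at 20 mM and 7571, 7138 and 9135 CPM at 35 mM. Its 35 mM libraries lay below all 20 mM libraries (log2 fold change −0.49 ± 0.15, edgeR adjusted p 0.817) and overlapped the basal ones.

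Of 26 genes of the tricarboxylic acid cycle and pyruvate entry, 6 had an unadjusted p under 0.05 at 35 mM against 11.8 mM. That is 23.1%, against 10.5% of all genes and 21.0% of the members. The median of the 26 was 0.09, 0 rose (against 0.626% of all genes) and 1 fell (against 0.236%). That gene was Idh2, the mitochondrial NADP-dependent isocitrate dehydrogenase, with 30.9, 42.4 and 44.0 CPM at 11.8 mM, 23.1, 28.3 and 30.5 CPM at 20 mM and 21.5, 24.1 and 23.3 CPM at 35 mM. All libraries of both high concentrations lay below the basal ones, and the log2 fold change was −0.77 ± 0.18 at 35 mM (edgeR adjusted p 0.0228) and −0.52 ± 0.17 at 20 mM (edgeR adjusted p 0.349). The fall at 35 mM did not pass without 11.8 mM replicate 2 (edgeR adjusted p 0.0858), 11.8 mM replicate 3 (0.144), 35 mM replicate 1 (0.158), 35 mM replicate 2 (0.082) or 35 mM replicate 3 (0.0752).

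Of 47 assembly factors of the complexes, 42 were tested and 0 were called by edgeR or DESeq2 in any comparison, with 4 (9.52%, against 10.5% of all genes) at an unadjusted p under 0.05 at 35 mM against 11.8 mM and a median of 0.05. The smallest p was that of Bcs1l, which inserts the Rieske protein into complex III, at −0.88 ± 0.23 (edgeR adjusted p 0.0739), with 8.32, 16.3 and 7.67 CPM at 35 mM, against 18.7, 21.3 and 18.9 CPM at 11.8 mM. Of 24 partners outside the symbol rule (cytochrome c1, other routes of electron entry and partners of ATP synthase), 21 were tested and 0 were called by either tool, with 3 (14.3%, against 10.5% of all genes) at an unadjusted p under 0.05 and a median of −0.0058. Usmg5, a small membrane subunit of ATP synthase, had 250, 284 and 347 CPM at 35 mM, against 183, 208 and 267 CPM at 11.8 mM (log2 fold change 0.42 ± 0.15, edgeR adjusted p 0.241).

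The remaining lists are given at 35 mM against 11.8 mM. Of 78 mitochondrial ribosomal proteins 76 were tested, with a median of 0.03 and 0 called by edgeR or DESeq2. An unadjusted p under 0.05 was found for 6 of them (7.89%, against 10.5% of all genes). Of 26 import genes 24 were tested, with a median of 0.05, 0 called by either tool and 0 at an unadjusted p under 0.05. Of 21 regulators of mitochondrial biogenesis 12 were tested, with a median of −0.0020, 0 called by either tool and 1 at an unadjusted p under 0.05, which was Yy1 (−0.56 ± 0.22, edgeR adjusted p 0.324). Nrf1, the gene of nuclear respiratory factor 1, had a log2 fold change of 0.01 ± 0.32, and the coactivator gene Ppargc1a, with 16 counts in all, was not tested. Without 11.8 mM replicate 1 the medians at 35 mM were 0.11 for the tricarboxylic acid cycle list, −0.03 for the assembly factors, −0.05 for the partners, 0.02 for the ribosomal proteins, −0.10 for the import genes and −0.10 for the regulators.

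At 20 mM against 11.8 mM none of these 7 lists had a gene called by edgeR or DESeq2. The unadjusted p was under 0.05 for 5 of the 26 tricarboxylic acid cycle genes, 2 of the 42 assembly factors, 2 of the 21 partners, 5 of the 76 ribosomal proteins, 1 of the 24 import genes and 1 of the 12 regulators, against 7.97% of all genes. Mrpl47, a protein of the large mitochondrial ribosomal subunit whose exons overlap Ndufb5 on the opposite strand, had 30.5, 27.8 and 38.9 CPM at 20 mM, against 19.5, 19.7 and 23.3 CPM at 11.8 mM. Its 20 mM libraries lay above the basal ones (log2 fold change 0.64 ± 0.18, edgeR adjusted p 0.181). Tomm7, a small subunit of the outer membrane import pore, had 54.8, 53.6 and 46.8 CPM at 20 mM, against 32.2, 40.7 and 42.2 CPM at 11.8 mM, also without overlap (log2 fold change 0.43 ± 0.16, edgeR adjusted p 0.45). Lyrm7, which guides the Rieske protein to complex III, had 0.616, 1.01 and 0.282 CPM at 20 mM, against 1.87, 5.09 and 3.20 CPM at 11.8 mM, and rests on 70 counts in all.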

How the data were processed

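The table deposited by the authors holds read counts for each gene in 27 sub-libraries. The submitters' processing notes name cutadapt, TopHat, HTSeq, DESeq2 and the build GRCm38.p4; software versions, the annotation and the strand used in counting were not given in the sources used here. Per the labels, CEL-Seq2 was run from 3 ng of RNA with a molecular identifier (UMI) of 6 bases; 16 genes exceeded the 4096 possible UMIs in a sub-library, so these counts are reads, not molecules, and depth covers counting error only.

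Sub-libraries were summed to 9 libraries through the deposited sample sheet. In 2 other deposited tables, 30 columns matched no sample label and were not used. Counting summary lines (19.6% to 29.9% of counted reads) and 92 spike-ins were left out. Within each concentration, no libraries were duplicates by a chi-square comparison. Libraries of different concentrations were not compared in this way.

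edgeR 4.0.16 (R 4.3.3) fitted a mean per concentration over 9 libraries, with TMM, filterByExpr and the robust quasi-likelihood test, adjusted over 9739 genes. It was tested on simulated data. SE is the log2 fold change divided by the root of its F statistic. DESeq2 1.42.0 was an alternative. Gene positions are those of GENCODE M21 (GRCm38).

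Named members are the called ones, Cycs, Ndufa1, the isoform families, and per complex the most abundant, the smallest p values per comparison and those without overlap in more than 1 comparison; from each list, the called genes or the smallest p. Members and lists were chosen with earlier results of these data known. One member is not reported here by name but is included in counts and medians.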

Additional observations from a re-analysis of the deposited data

How the results depend on the processing

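Alternatives comprised other size factors and filters, DESeq2, leaving out the 20 genes with the most counts, the replicate numbers as a block, a fit of only the 2 concentrations compared, and each library left out. A fit without 2 sub-libraries was added after seeing the data. The 1 member called at 35 mM against 11.8 mM became 2 with no expression filter, 2 with DESeq2, 0 with only the 2 concentrations compared and 0 without 2 sub-libraries. It ranged from 0 to 2 when 1 library was left out. The 0 called at 20 mM against 11.8 mM became 3 with no filter (Atp5mpl, Cycs and Ndufa1), 2 with DESeq2, and ranged from 0 to 2 when 1 library was left out. At 35 mM against 20 mM the count was 0 in all 17 alternatives. Cycs at 35 mM against 20 mM ran from −0.1086 to 0.0519 when 1 library was left out, above 0 without 20 mM replicate 1 and at or below 0 otherwise; of the 42 named results taken through every alternative the other 41 kept their direction, and the cause was not tested beyond the fewer libraries or changed set of genes of each fit. Of other values in the text, Ndufa6, Sdhb and Uqcrh turned below 0 at 20 mM against 11.8 mM without 11.8 mM replicate 1 (−0.11, −0.0093 and −0.04).

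With the replicate block, 1, 0 and 0 members were called at 35 mM and 20 mM against 11.8 mM and at 35 mM against 20 mM, and 74, 13 and 3 of all genes against 84, 18 and 3 without it. Correlations of the deviations of same-numbered libraries ran from −0.146 to 0.0459, and those of differently numbered ones from −0.159 to 0.163. These values show no pairing by number, and with 3 libraries at each concentration they cannot exclude a pairing or a shared batch. Replicate 1 had 21.9% of counted reads with no unique alignment at 11.8 mM, 16.2% at 20 mM and 22.6% at 35 mM. Over all genes, calls at 35 mM against 11.8 mM ran from 41 to 148 over the alternatives, and at 20 mM against 11.8 mM from 7 to 51.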
